A study of Saccharomyces cerevisiae with 55 samples.

Results

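RNA polymerase I is the enzyme that transcribes the ribosomal DNA repeats of budding yeast into the precursor of the large ribosomal RNAs. The messages of 10 of its genes were followed here across every strain and stress of a two-colour array series: RPA190, RPA135, RPA49, RPA43, RPA34, RPA14 and RPA12 for subunits of polymerase I, RPC19 and RPC40 for the subunits it shares with RNA polymerase III, and RRN3 for the initiation factor that brings the enzyme to the promoter. They were chosen by name, as the probes that carry these symbols, and make up 10 of the 6249 genes or unnamed probes measured. All 10 had a value on each of the 54 arrays that the labels put in a group.

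Ribosome synthesis is among the costliest activities of a growing cell, and yeast cells lower the messages for ribosome components and for the polymerases that make ribosomal RNA when stress or nutrient signals, many of them through the TORC1 kinase, stop rapid growth. Kcs1 and Vip1 are the kinases that make inositol pyrophosphates, and Ipk1 and Arg82 act before them on the inositol phosphates that serve as substrates. Rpd3 is a histone deacetylase that many repressors recruit, and Snt1 is a subunit of the Set3 deacetylase complex. The study asked how this kinase pathway takes part in the general stress programme.

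The arrays compared RNA of wild type cells (ACY044, W303 background) and of 9 mutants in that background: kcs1/vip1, kcs1, vip1, Vip1D487A, ipk1, arg82, rpd3, Rpd3ibs and snt1. The design text calls the mutants null, although Vip1D487A is named as a substitution, and the labels do not explain Rpd3ibs. Each mutant was 1 strain number. Cells grew to mid-log phase in YEPD and were sampled there or after 20 min in 0.375 M KCl, in 0.4 mM H2O2, at 42 °C, or with 200 nM rapamycin, a TORC1 inhibitor. In wild type, stressed RNA was set against mid-log RNA. Each mutant was set against wild type in the same condition, in mid-log growth and in KCl, and kcs1/vip1 also in H2O2 and heat. The kcs1/vip1 strain was further compared with itself, as KCl over mid-log, H2O2 over mid-log, and KCl with rapamycin over KCl alone.

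Groups held 1 to 3 arrays, with 3 arrays in 7 groups, 2 in 13 and 1 in 7. Arrays were placed on slides by the long number that ends their titles, an inference from those titles. A value is the log2 ratio of the first-named over the second-named RNA, so -1 means a halving. The base of the logarithm was read from the values, as the sources used here do not give it. The ratio of a gene compares 2 RNAs and says nothing of the level of one gene against another. Nothing in the labels says that arrays of a group came from separate cultures, so p-values measure the spread between arrays, which may be technical. Tests are from limma on all genes, with p adjusted by Benjamini-Hochberg within a comparison and a threshold of 0.05. Errors are the SD over arrays unless called a standard error, and no value from a comparison with 1 array has an error or a test.

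Several labels and arrays stand apart and touch the results below. Where they had a value, the deleted genes KCS1 and VIP1 were far below wild type on the kcs1/vip1 arrays of mid-log growth and KCl, as KCS1 was at -7.08 on the first mid-log array. The 2 arrays labelled kcs1/vip1 in H2O2 had no value for either gene, as was so on several other arrays of this strain, but they gave LEU2 at 3.19 and 1.57, where the kcs1/vip1 arrays of mid-log growth and KCl gave LEU2 between -4.41 and -3.97. On the array labelled kcs1/vip1 in heat VIP1 was at -0.01 and LEU2 at 1.47. The second array labelled kcs1 in mid-log growth had KCS1 at -0.30, against -5.29 on the first, and IPK1 at -2.87. The dye-swapped arrays of Vip1D487A correlated with their unswapped partners at r = 0.016 in mid-log growth and r = 0.153 in KCl over all genes, so the direction of these 2 arrays is not settled. Their sign was kept as deposited.

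In wild type cells KCl lowered the messages of the RNA polymerase I genes, though the fall of RPA14 was not firm. All 10 genes fell by the test, where 31.3% of the 5863 genes tested fell. The RPA14 call was lost under several alternatives given below. The median of the 10 was -3.76 against -0.02 for all genes tested. The falls were deepest for the peripheral subunits RPA43 and RPA49 and least for RPA14 and RRN3. In RNA from whole cultures, fewer cells that carry a message and less of it per cell cannot be told apart.

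The catalytic core is made of the largest subunits, Rpa190 and Rpa135, which between them form the active centre. RPA190 was at -3.68, -4.07 and -3.02 on the 3 KCl arrays, a 12.0-fold fall (adjusted p = 4.31e-12). RPA135 was at -3.97, -5.29 and -3.55, a 19.3-fold fall (adjusted p = 9.22e-13). Both genes were low on every array, and the second array gave the lowest value of each.

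Rpa49 and Rpa34 bind each other as a detachable pair on the enzyme's side that helps it to start and to elongate. RPA49 was at -4.93, -4.54 and -4.94, a mean of -4.80 ± 0.23 (n = 3). RPA34 was at -5.34, -3.14 and -4.42, a mean of -4.30 ± 1.10 (n = 3). The replicates of RPA34 were therefore far more scattered than those of RPA49, although both fell (adjusted p = 1.15e-13 and 1.85e-18 in limma).

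Rpa43 and Rpa14 form the stalk, and Rpa43 is the subunit that Rrn3 contacts. RPA43 was at -5.53, -4.06 and -5.62, a 33.6-fold fall (adjusted p = 1.99e-15). Its stalk partner did not follow it: RPA14 was at 0.34, -1.39 and -0.89, above 0 on the dye-swapped array and below 0 on the others. The mean for RPA14 was -0.65 with a standard error of 0.28 and an adjusted p of 0.0448 in limma. That call was lost when arrays were centred (adjusted p = 0.0556) or scaled to the same spread (-0.36, adjusted p = 0.271) and with a dye term (adjusted p = 0.0929). It was also lost without replicate 2 (-0.28, adjusted p = 0.492) or replicate 3 (-0.53, adjusted p = 0.197).

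Rpa12 sits near the active centre, where it supports cleavage of the nascent RNA. RPA12 was at -3.30, -2.90 and -3.64. The shared subunits Rpc19 and Rpc40 hold each other and form the platform on which both polymerases assemble. RPC19 was at -3.75, -4.38 and -3.68 and RPC40 at -3.13, -2.62 and -2.62. These 3 genes fell by 9.71, 15.3 and 6.92 times, with arrays close together (SD of 0.29 to 0.39). RRN3, which encodes the initiation factor, was at -1.57, -1.72 and -1.42, a 2.97-fold fall with little spread (SD 0.15, adjusted p = 5.54e-11).

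**Figure D1:**
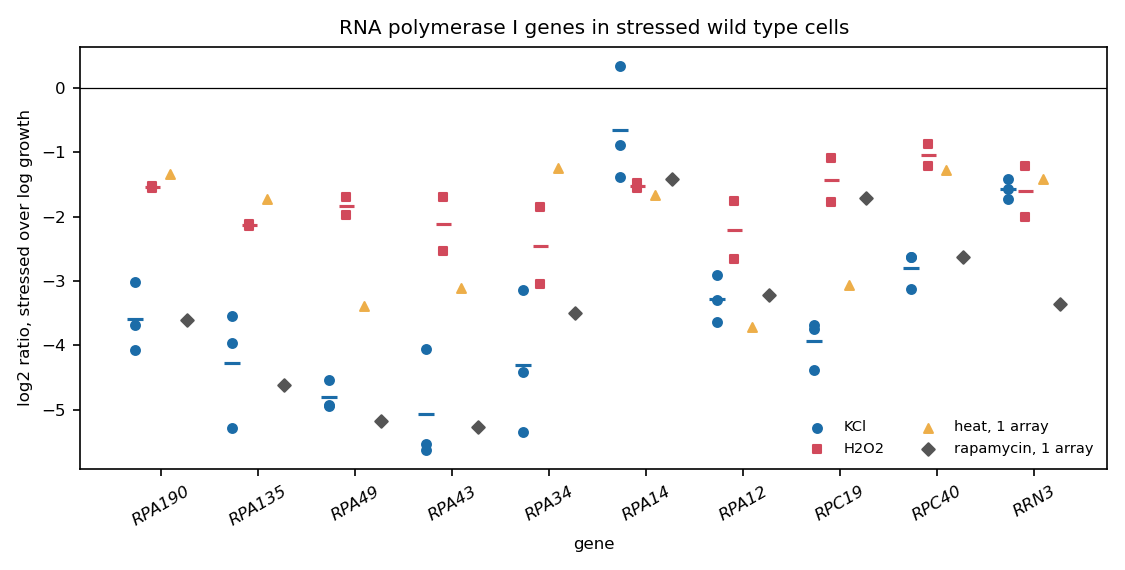
Log2 ratio of stressed over mid-log wild type cells (vertical axis) for the 10 RNA polymerase I genes (horizontal axis), with 1 point per array and a bar at the mean of the KCl (3 arrays) and H2O2 (2 arrays) groups. The KCl points lie below the H2O2 points for 8 genes, while RRN3 overlaps in both and RPA14 is scattered in KCl from -1.39 to 0.34.

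In H2O2 all 10 genes fell again, where 21.4% of 5735 genes tested fell, but to a median of -1.72. RPA34 was lowest, at -3.05 and -1.85, and RPC40 highest, at -1.21 and -0.87. RPA14 fell in H2O2 by 1.52 on the log2 scale, with -1.56 and -1.48 on the arrays. RRN3 was at -2.0 and -1.21. RPC19, at -1.77 and -1.08, did not pass without the first array (adjusted p = 0.174). The spread of the 10 genes was narrower than in KCl, from -2.45 to -1.04.

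The difference between the stresses was tested gene by gene as KCl minus H2O2, each against mid-log cells. It was lower in KCl for 8 genes, where 18.0% of 5699 genes tested were lower. RPA49 differed by -2.97 (standard error 0.35) and RPA43 by -2.96 (standard error 0.49), the widest differences of the 10. RPA12 differed least among the genes that passed (-1.08, adjusted p = 0.0312 in limma). Without the second H2O2 array RPA12 (-0.63, adjusted p = 0.409) and RPA34 (-1.25, adjusted p = 0.164) did not pass, and RPA12 did not without KCl replicate 1 (-1.07) or 3 (-0.90). RRN3 had a difference of 0.04, with a 95% interval of -0.44 to 0.51, and RPA14 one of 0.87 (-0.02 to 1.77), and neither passed. This contrast depends on array scale: 1 gene passed once arrays were scaled to the same spread, and 3 passed with slide as a fixed block.

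Heat and rapamycin were each measured on 1 wild type array. In heat all 10 values were below 0 with a median of -1.70, and the genes split widely: RPA12 was at -3.71, RPA49 at -3.39, RPA43 at -3.11 and RPC19 at -3.06, while RPA34 was at -1.25, RPC40 at -1.28 and RPA190 at -1.34. With rapamycin all 10 were again below 0, with a median of -3.42 on an array whose median over all genes was 0.38. RPA43 was at -5.27, RPA49 at -5.17 and RPA135 at -4.62. RRN3 was at -3.35 on the rapamycin array, below its KCl values, and RPC19 at -1.71, above its KCl values. With 1 array for each of these treatments the order of genes between them was not tested.

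**Figure D2:**
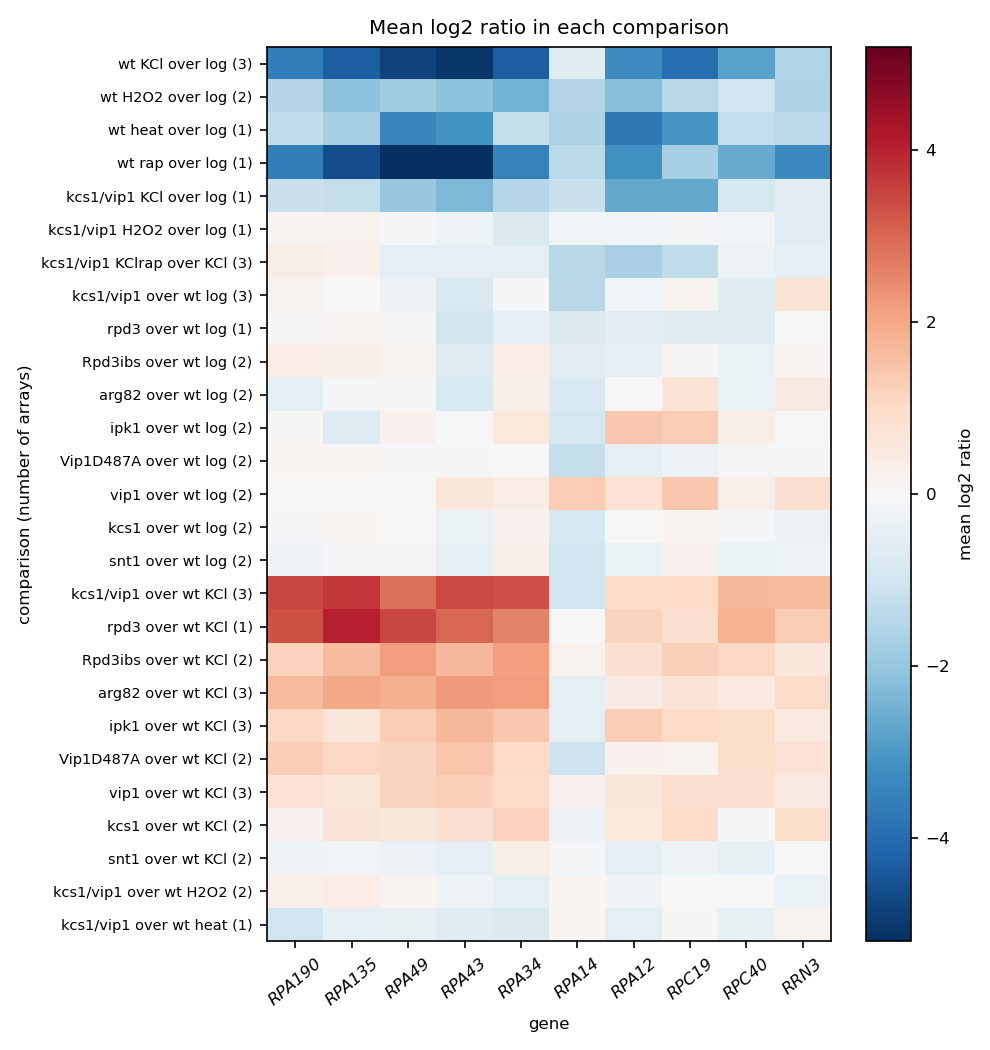
Mean log2 ratio (colour, blue below 0 and red above 0) of each RNA polymerase I gene (columns) in each of the 27 comparisons (rows, with the number of arrays in brackets; rap is rapamycin, wt is wild type). The wild type stress rows are blue throughout, the mid-log mutant rows are paler, with the deepest blue among them at RPA14 in kcs1/vip1, and the KCl rows of kcs1/vip1 and rpd3 are the reddest for RPA190 to RPA34.

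By their means, most of these genes were near wild type in the mutants without stress. In kcs1/vip1 cells in mid-log growth 3 genes fell, where 19.0% of 5761 genes tested were lower, and 1 rose, where 18.9% were higher. RRN3 rose, at 0.57, 0.70 and 0.82 (adjusted p = 3.86e-04 in limma). RPC40 fell, at -0.51, -0.61 and -0.74, and RPA43 fell, at -0.63, -0.97 and -0.80 (adjusted p = 0.0421). The RPA43 call was lost without any 1 of the arrays (adjusted p = 0.0912, 0.158 and 0.117), with arrays scaled (0.0866) and with a dye term (0.0535). These shares of the genes are close to the background of the comparison. The arrays disagreed on RPC19, at 1.17, -1.03 and 0.27, and on RPA12, at 0.81, -0.97 and -0.26.

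RPA14 had its own pattern in mid-log growth. In kcs1/vip1 it was at -1.15, -2.02 and -1.21, a 95% interval of -2.03 to -0.89 around the mean of -1.46 (adjusted p = 1.13e-04 in limma). Of the 18 mid-log arrays of mutants, 16 had RPA14 below 0, from -2.02 to -0.27, and the vip1 arrays had it above 0, at 1.51 and 1.16. Of 4815 genes with a value on each of those 16 arrays, 1.35% were below 0 on all of them and 0.935% above. The 16 arrays were set apart by the sign of RPA14 itself, so these shares are not a fair background for it. The 16 include the dye-swapped Vip1D487A array, at -0.93, which would read 0.93 with its sign turned. The second kcs1 array, at -1.59, is also among them, and its label is in doubt because KCS1 was near 0 on it. Apart from kcs1/vip1 and vip1 no single mutant passed for RPA14: ipk1 had -0.89 (adjusted p = 0.0538), snt1 -1.02 (adjusted p = 0.0512) and arg82 -0.80 (adjusted p = 0.0943). The means of the other mutants tested were -1.24 for Vip1D487A, -0.93 for kcs1 and -0.53 for Rpd3ibs. That of kcs1 joins -0.27 on the first array with -1.59 on the array in doubt.

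In vip1 cells in mid-log growth 3 genes rose, where 9.12% of 5437 genes tested were higher. These were RPA14, RPC19 (1.43 and 1.41) and RRN3 (0.96 and 0.74). Leaving out either vip1 array left 0 or 1 of these calls. In ipk1 cells 2 genes rose, where 12.6% of 5622 genes tested were higher: RPA12 was at 1.02 and 1.80, and RPC19 at 1.33 and 1.34. Neither passed without the second ipk1 array.

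No member passed in mid-log arg82, kcs1, snt1, Vip1D487A or Rpd3ibs cells in limma, with 3, 1, 1, 1 and 0 members at an unadjusted p under 0.05. The share of all genes called in those comparisons was 17.2%, 0.440%, 10.3%, 0.0359% and 20.4%. In arg82 cells RPA43 was at -0.79 on both arrays. On the single rpd3 array RPA43 was at -0.95, RPA14 at -0.74, and RPA190 and RPA135 at 0.05 and 0.15.

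KCl changed this picture for kcs1/vip1 cells. Set against wild type cells in the same KCl, 9 genes were higher, where 24.8% of 5788 genes tested were higher, and RPA14 was lower, where 25.6% were lower. The median of the 10 was 2.27 against -0.02 for all genes tested.

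For the catalytic core, RPA190 was at 2.90, 3.27 and 4.21, 11.0-fold higher than in wild type (adjusted p = 8.15e-11). RPA135 was at 3.26, 3.31 and 4.44, 12.7-fold higher (adjusted p = 2.27e-10). Both were highest on replicate 3.

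The peripheral pair and the stalk subunit Rpa43 were raised to a like extent but in another order of arrays. RPA49 was at 3.30, 2.54 and 2.73. RPA34 was at 4.45, 2.69 and 2.89, and RPA43 at 4.29, 3.08 and 2.87. For these 3 genes the first array gave the highest value.

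The other members were raised less. RPC40 was at 2.05, 1.67 and 1.35, and RRN3 at 1.37, 1.89 and 1.70. RPC19 was at 2.01, 0.68 and 0.42 and RPA12 at 1.65, 0.80 and 0.39, so that most of their mean (1.04 and 0.95) came from the first array. Without it neither passed, with RPC19 at 0.55 (adjusted p = 0.240 in limma) and RPA12 at 0.59 (adjusted p = 0.104). RPC19 was also lost with a dye term (adjusted p = 0.0838) and with arrays scaled (adjusted p = 0.0721). RPA14 was at -0.51, -0.79 and -1.66, a mean of -0.99 (adjusted p = 0.00401 in limma). Its call was lost without replicate 3 (-0.65, adjusted p = 0.107) and with a dye term (-0.61, adjusted p = 0.138).

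Whether the mutation changed the response to KCl was tested as kcs1/vip1 over wild type in KCl minus the same ratio in mid-log growth. This difference was higher for 8 genes, where 13.4% of 5714 genes tested were higher, with a median of 2.73 for the 10. RPA43 had the widest difference, 4.21 (standard error 0.44, adjusted p = 1.32e-08). RPA135 followed at 3.63, RPA34 at 3.40, RPA190 at 3.29, RPA49 at 3.15 and RPC40 at 2.31. RPA12 (1.09, adjusted p = 0.0181) and RRN3 (0.96, adjusted p = 7.11e-04) passed with smaller differences in limma. The RPA12 call was lost without KCl replicate 1 (0.73, adjusted p = 0.165) or mid-log replicate 2 (0.67, adjusted p = 0.192) or 3 (1.03, adjusted p = 0.0603). That of RRN3 was lost with arrays scaled to the same spread (0.61, adjusted p = 0.0869). RPC19 had 0.90 with a 95% interval from -0.01 to 1.81, and RPA14 had 0.47 from -0.33 to 1.28, and neither passed. On the 2 slides that carried both conditions of this strain, all 10 within-slide differences were above 0, with medians of 2.75 and 2.56.

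The response of kcs1/vip1 cells themselves can be derived by adding this difference to the wild type response. Derived this way, the KCl response was -0.30 for RPA190 (standard error 0.52), -0.64 for RPA135 (0.58) and -0.86 for RPA43 (0.54). These are 8.3%, 15.0% and 16.9% of the wild type log2 change. RPC19, at -3.04 (standard error 0.55), and RPA12, at -2.19 (0.43), had 77.1% and 66.9% of it. RRN3, at -0.61 (standard error 0.26), had 39.1%. RPA49, at -1.65 (standard error 0.39), had 34.4%. RPA34 was at -0.90 (standard error 0.54), RPC40 at -0.48 (0.30) and RPA14 at -0.17 (0.48). RPA190, RPA135, RPA43, RPA34, RPC40 and RPA14 thus lay within 2 standard errors of 0. RPA12, RPC19, RPA49 and RRN3 did not.

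The single array that compared kcs1/vip1 in KCl directly with kcs1/vip1 in mid-log growth gave lower values for most genes. It had RPA190 at -1.17, RPA135 at -1.23, RPA43 at -2.35 and RPA49 at -1.97. RPA12 and RPC19 were again the lowest, at -2.65 and -2.67, and RRN3 the highest, at -0.58. The median of the 10 was -1.36 on this array against -0.75 derived, both above the wild type median of -3.76.

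**Figure D3:**
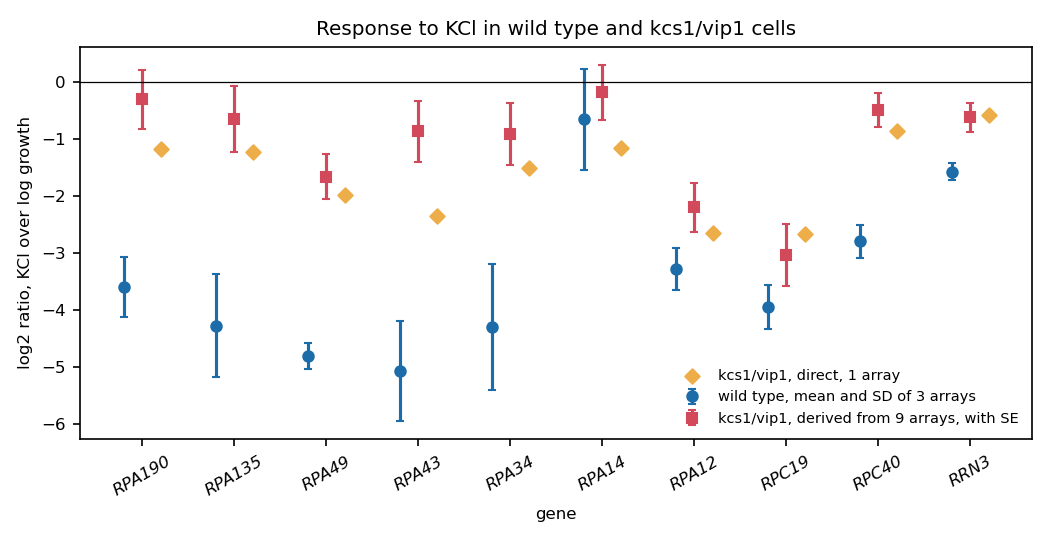
Log2 ratio of KCl over mid-log growth for each RNA polymerase I gene in wild type cells (mean and SD of 3 arrays), in kcs1/vip1 cells as derived from 9 arrays (with standard error) and in kcs1/vip1 cells on 1 direct array. The kcs1/vip1 points lie above the wild type means for all genes but RPA14, whose direct value is below, and the derived points are closest to wild type for RPA14, RPC19, RRN3 and RPA12.

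In H2O2 the arrays labelled kcs1/vip1 over wild type showed no called member in limma, and 0 of 10 at an unadjusted p under 0.05, where 5.02% of 5831 genes tested were called. Values lay between -0.48 for RPA34 and 0.37 for RPA135. Against the mid-log ratio, RPA14 was higher by 1.55, where 8.27% of 5732 genes tested were higher, and RRN3 was at -1.05, where 7.80% were lower. Neither passed without the first H2O2 array, and 1 did without the second H2O2 or the second mid-log array. The ratio in KCl minus that in H2O2 was higher for 8 members, where 13.7% of 5748 genes tested were higher. The derived H2O2 response of kcs1/vip1 had a median of -1.54, while the 1 direct array of kcs1/vip1 in H2O2 over mid-log had a median of -0.13. These routes to the same quantity thus differed by 1.52 for the median member, and the arrays over wild type are those on which LEU2 did not match the mid-log and KCl arrays. What the H2O2 arrays show of these genes therefore rests on labels in doubt. On the heat array labelled kcs1/vip1, RPA190 was at -1.04 and the median of the 10 at -0.40.

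The other mutants were also set against wild type in KCl. Ordered by the median of the 10 genes on each array, kcs1/vip1 came first (2.22 to 2.48 over 3 arrays), next to the single rpd3 array (2.20). Rpd3ibs followed at 1.16 to 1.38, then arg82 at 1.09 to 1.12, ipk1 at 0.44 to 1.5, Vip1D487A at 0.71 to 1.22, vip1 at 0.62 to 0.90, kcs1 at 0.36 to 0.97, and snt1 at -0.35 to -0.09. From arg82 down to kcs1 each strain's range overlapped that of the next. The ipk1 range also spanned that of Rpd3ibs, and the Vip1D487A range reached into it. From Rpd3ibs down to kcs1 the order is therefore not fixed beyond the spread of the arrays. Both snt1 arrays lay below those of all the other strains. The 0.71 of Vip1D487A is the dye-swapped array, which would lie at -0.71, below snt1, with its sign turned.

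**Figure D4:**
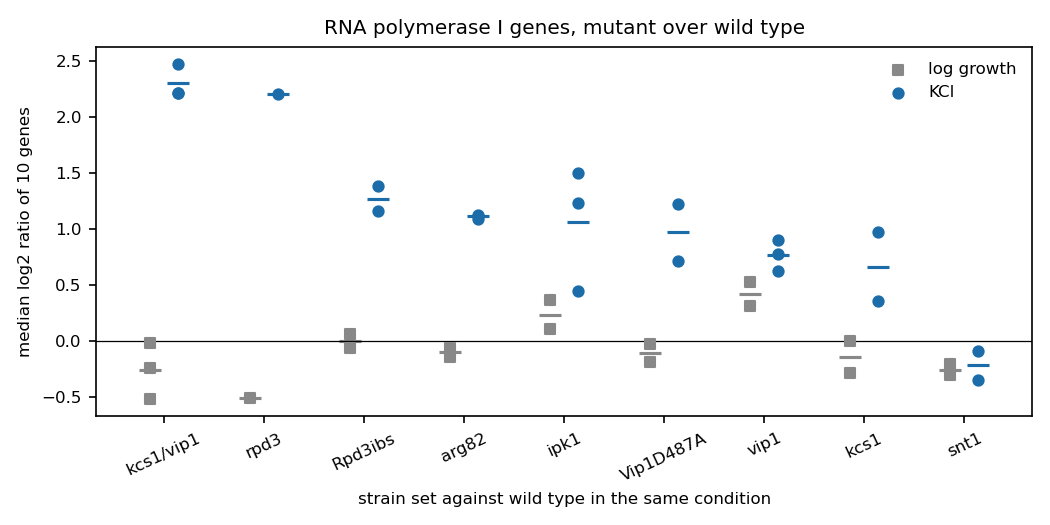
Median log2 ratio of the 10 RNA polymerase I genes on each array (points), mutant over wild type, in mid-log growth (grey squares) and KCl (blue circles), with a bar at the mean of the arrays. In KCl all arrays of kcs1/vip1, rpd3, Rpd3ibs, arg82, ipk1, Vip1D487A, vip1 and kcs1 lie above 0 and both snt1 arrays below it, with the dye-swapped Vip1D487A array (0.71) drawn with its deposited sign, which if turned would put it at -0.71.

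In Rpd3ibs cells in KCl 9 genes were higher, where 15.7% of 5674 genes tested were higher. RPA49 was at 2.16 and 2.18, RPA34 at 1.98 and 2.25 and RPA43 at 1.57 and 1.83. RPA190 was at 1.78 and 0.62, so its arrays were far apart. RPA14, at 0.25 and 0.15, did not pass. Without the first array 4 genes passed. The difference from mid-log growth passed for 4 genes, where 4.29% of 5565 genes tested were higher: RPA43 (2.32), RPA49 (2.0), RPA34 (1.74) and RPC40 (1.43). Both within-slide differences had all 10 genes above 0, with medians of 1.26 and 1.19. The calls fell to 1 without the first mid-log or the first KCl array and to 2 without the second KCl array.

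The single rpd3 array in KCl had RPA135 at 4.04, RPA49 at 3.49, RPA190 at 3.33, RPA43 at 2.97 and RPA34 at 2.59. RPC40 was at 1.82, RRN3 at 1.26, RPA12 at 1.15, RPC19 at 0.89 and RPA14 at -0.04. In kcs1/vip1 cells the highest means in KCl were those of RPA135 (3.67), RPA190 (3.46), RPA43 (3.41), RPA34 (3.34) and RPA49 (2.86).

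In arg82 cells in KCl 7 genes were higher, where 13.9% of 5813 genes tested were higher. RPA43 was at 2.32, 2.20 and 2.13, RPA34 at 2.38, 2.24 and 1.89, and RPA135 at 1.58, 1.79 and 2.58. RRN3 was at 0.96, 0.98 and 0.93, the tightest of the members. RPA12 (0.42), RPC19 (0.67) and RPA14 (-0.49) did not pass, and RPC40 (0.51) did not without replicate 1 (adjusted p = 0.168) or 2 (adjusted p = 0.0899). The difference from mid-log growth passed for 5 genes, where 2.51% of 5130 genes tested were higher, led by RPA43 at 3.01 (standard error 0.49, adjusted p = 5.84e-04 in limma). RPA190 had 2.15, RPA135 2.09, RPA49 1.94 and RPA34 1.81. That count was 2 without either mid-log array and 3 without the third KCl array.

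In ipk1 cells in KCl 8 genes were higher, where 11.4% of 5753 genes tested were higher. The arrays disagreed: RPA135 was at 1.83, -0.93 and 0.95, and RPA190 at 1.92, 0.13 and 1.14, while RPA12 was at 0.81, 1.67 and 1.32. RPA135 and RPA14 did not pass, and 5 genes passed without the third array. No member passed in the difference from mid-log growth in limma, where 0.0180% of 5553 genes tested were called, although 6 of 10 had an unadjusted p under 0.05. Without the second KCl array 4 passed, and without the first mid-log array 1. On the slides that carried both conditions the medians were 1.02 and 0.13.

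In vip1 cells in KCl 5 genes were higher, where 4.63% of 5763 genes tested were higher: RPA43 (1.23), RPA49 (1.15), RPA34 (0.97), RPC40 (0.81) and RRN3 (0.48). All 10 genes were above 0 on all 3 arrays. The count ran from 0 without the first array, through 1 without the second, to 3 without the third. The difference from mid-log growth passed for RPA49 alone (1.15, adjusted p = 0.0490 in limma), where 2.69% of 5390 genes tested were higher, and no call remained when any 1 array of either condition was left out.

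In Vip1D487A cells in KCl 4 genes were higher, where 1.58% of 5624 genes tested were higher: RPA43 (1.45), RPA49 (1.14), RPC40 (0.91) and RRN3 (0.77). With the sign of the dye-swapped arrays turned, none passed and RRN3 was at -0.04. No call remained without the unswapped array and 1 without the swapped one. In the difference from mid-log growth no member passed in limma, where 0% of 5467 genes tested were called, and 5 of 10 had an unadjusted p under 0.05.

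In kcs1 cells in KCl 1 gene was higher, where 2.71% of 5756 genes tested were higher: RRN3, at 0.76 and 1.03 (adjusted p = 0.00224 in limma). RPA190 was at -0.67 and 1.09 and RPA135 at -0.13 and 1.49, so the 2 arrays disagreed on the core genes. The RRN3 call was lost without the second array. The difference from mid-log growth gave no called member in limma (2 of 10 at an unadjusted p under 0.05), where 0% of 5705 genes tested were called. It also gave none without the second kcs1 mid-log array, the one whose KCS1 value was near 0.

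In snt1 cells in KCl no member passed in limma, and 0 of 10 had an unadjusted p under 0.05, where 7.87% of 5733 genes tested were called. The interval of the ratio was -0.99 to 0.52 for RPA190, -1.24 to 0.32 for RPA43 and -0.36 to 0.37 for RRN3. The difference from mid-log growth also gave 0 calls, with 0 of 10 at an unadjusted p under 0.05, where 0% of 5536 genes tested were called.

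Direct contrasts between strains in KCl set the double mutant against the others. Against vip1, 7 genes were higher in kcs1/vip1, where 9.12% of 5714 genes tested were higher, and RPA14 was lower, at -1.20, where 6.74% were lower. Against kcs1, 7 were higher, where 9.62% of 5728 were, and 4 without the first kcs1 array. RPA190 differed by 2.69 from vip1 and 3.25 from kcs1, and RPA135 by 3.04 and 2.99. RPA12 and RPC19 did not pass in either contrast, with differences of 0.03 to 0.41. After arrays were scaled to the same spread 1 call was left against vip1 and 4 against kcs1. The RPA14 call against vip1 was also lost with slide as a random block (-0.95, adjusted p = 0.0842 in limma) or a fixed block (-0.63, adjusted p = 0.351), and without kcs1/vip1 replicate 3 (-0.87) or any vip1 array (-1.28 to -1.14). The RPC40 call against vip1 was lost without kcs1/vip1 replicate 1 (0.70) or vip1 replicate 3 (0.81). Against kcs1 the RRN3 call was lost without kcs1/vip1 replicate 2 (0.64) or 3 (0.73) or either kcs1 array (0.62 and 0.89).

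Against arg82, 5 genes were higher in kcs1/vip1, where 6.43% of 5736 genes tested were higher: RPA190 (1.80), RPA135 (1.69), RPC40 (1.18), RPA49 (1.01) and RRN3 (0.70). Against Rpd3ibs, 4 were higher, where 11.1% of 5645 were: RPA190 (2.26), RPA135 (2.04), RPA43 (1.71) and RRN3 (1.07). Both contrasts are weak in number: without single arrays the first gave 1 to 5 calls and the second 1 to 5, and after arrays were scaled to the same spread none passed. For the first, 1 call was left without the second arg82 array or replicate 3 of kcs1/vip1, and 3 without replicate 1 or replicate 3 of arg82. For the second, 1 was left without the second Rpd3ibs array. Between kcs1 and vip1 no member passed in limma, with 1 of 10 at an unadjusted p under 0.05, where 0.561% of 5702 genes tested were called. RPC40 had the widest difference of these, -0.87 with a standard error of 0.27.

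Rapamycin added to KCl in kcs1/vip1 cells moved the genes unequally. RPA12 fell, at -1.49, -2.18 and -1.41, as did RPA14, at -0.82, -2.61 and -0.88, and RPC19, at -0.96, -2.02 and -1.01. Thus 3 genes fell, where 2.58% of 6052 genes tested fell, and their adjusted p in limma was 1.81e-05, 0.00105 and 0.00898. The second array was the lowest for each, and without it RPA12 alone passed.

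The core genes lay on the other side of 0. RPA190 was at 0.17, 0.35 and 0.39 and RPA135 at 0.21, 0.01 and 0.48, and neither passed. RPA49 (-0.52), RPA43 (-0.49), RPA34 (-0.47), RRN3 (-0.47) and RPC40 (-0.28) were between, and none of them passed. RRN3 had all arrays below 0 and an adjusted p of 0.0579.

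The genes that fell with rapamycin are also the shortest of the 10. From the reference annotation (assembly R64, used for names, order and gene length), RPA12 spans 378 bases, RPA14 414 and RPC19 429, against 3612 for RPA135 and 4995 for RPA190. Across the 10 members the log2 ratio with rapamycin and the log2 gene length had r = 0.923. Across 4025 named genes on the same arrays it was 0.165, and genes are not independent replicates. For kcs1/vip1 KCl minus mid-log these values were 0.559 and -0.019, and for arg82 KCl minus mid-log 0.57 and 0.051. For kcs1/vip1 over wild type in KCl they were 0.687 and -0.097. In wild type cells the members showed little of this, with -0.202 and -0.01 in KCl and 0.05 and -0.195 in H2O2.

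Length also went with the ratios on single arrays. Over the named genes of an array r ran from -0.47 to 0.45, and the mean of RPA12 and RPC19 minus the mean of RPA190 and RPA135 ran against it, with r = -0.602 over 54 arrays, which share genes and wild type RNA. On the 3 kcs1/vip1 KCl arrays this gap was -1.25, -2.55 and -3.92, while length correlated at -0.302, -0.113 and 0.172. After the length trend of each array was removed, an alternative chosen after the data were seen, 4 members were called with rapamycin, RPA12, RPA14 and RPC19 among them, and 8 for kcs1/vip1 KCl minus mid-log. What part length has in the gap between these genes was not tested otherwise.

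**Figure D5:**
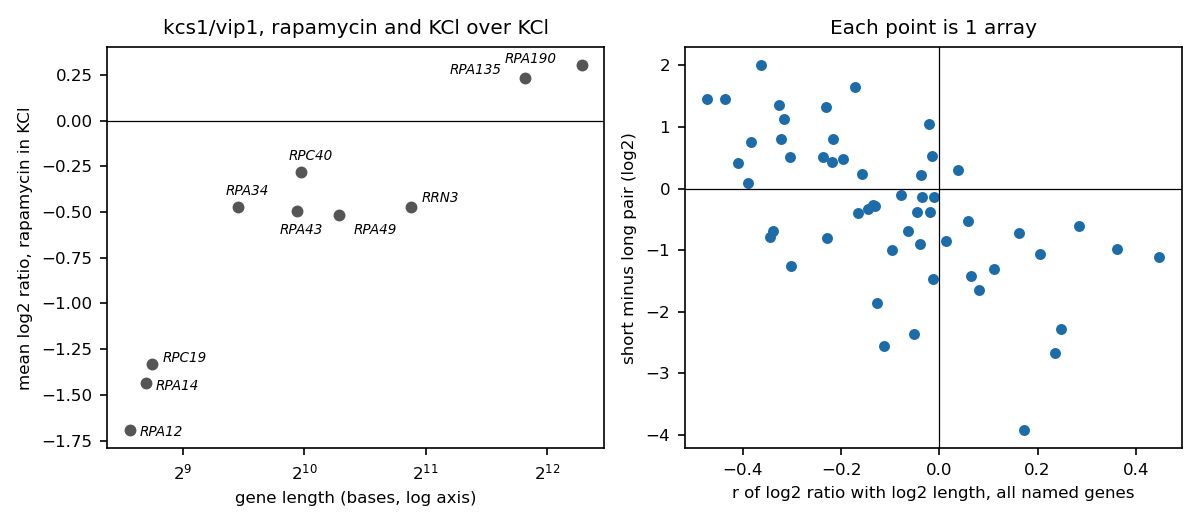
Left, mean log2 ratio of rapamycin with KCl over KCl in kcs1/vip1 cells (3 arrays) against gene length in bases (log axis) for the 10 RNA polymerase I genes. Right, for each of 54 arrays, the mean of RPA12 and RPC19 minus that of RPA190 and RPA135 against the correlation of log2 ratio with log2 gene length over all named genes, which runs from upper left to lower right.

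Most members varied together over the arrays, and RPA14 did not. Over the 54 arrays RPA190 and RPA135 had r = 0.977, RPA49 and RPA43 0.975, and RPA12 and RPC19 0.941. RPA12 and RPC19 were less alike to RPA190 (0.715 and 0.675). RPA14 had r between 0.111 and 0.437 with the other members. These values are descriptions, since arrays share RNAs and stress arrays set most of the range.

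Among all genes with at least 50 values, those most like the median of the 10 were DBP3 and UTP8 (both r = 0.981), BRX1 and NOP14 (both 0.978) and TRM82 (0.977). DBP3 encodes an RNA helicase of ribosome assembly, UTP8 and NOP14 parts of the small subunit processome, and BRX1 a factor of large subunit assembly, while TRM82 belongs to a tRNA methyltransferase. In wild type KCl DBP3 was at -5.56 ± 0.36 and TRM82 at -3.78 ± 0.47 (n = 3). By member, the closest genes were DBP3 for RPA49 (0.989), TRM82 for RPA43 (0.979) and RPC40 (0.973), BFR2 for RPA34 (0.971), FAP7 for RPC19 (0.961) and UTP15 for RRN3 (0.884). RPA14 had no close companion, with MET31 first at 0.700.

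Members also differed in how well the arrays agreed. The SD pooled over replicate groups was 0.231 for RRN3 and 0.287 for RPC40, below the median of 0.388 over all genes. It was 0.546 for RPA190, 0.614 for RPA135 and 0.564 for both RPA43 and RPA34. For RPA49 it was 0.391, for RPA12 0.435, for RPA14 0.50 and for RPC19 0.569, so that depth of change and repeatability did not go together in every member.

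RPA190 (YOR341W) and RPA43 (YOR340C) are neighbours on chromosome XV, on opposite strands and pointing away from each other. In wild type KCl the neighbours of RRN3, YPK1 and SSH4, had means of 1.36 and 2.13, and NTA1 beside RPA12 was at 1.48. DBP2 beside RPC19 was at -4.49 and SUT2 beside RPA135 at -2.49, so neighbours of members lay on both sides of 0.

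Among the related lists, the subunits that all 3 nuclear RNA polymerases share also fell in wild type KCl. Each count of falls below stands beside 31.3% of the 5863 genes tested. Of RPB5, RPO26, RPB8, RPB10 and RPC10, 5 of 5 fell, with a narrow range from -2.88 for RPB8 to -2.59 for RPB10. Of 10 subunits particular to polymerase III, which makes transfer RNAs and the 5S ribosomal RNA, 10 fell, with a median of -2.49, from RPC31 at -3.99 to RPC37 at -0.86. Of 7 polymerase II subunits 4 fell, where 31.3% of all genes tested fell, and the median of the 7 was -0.55. RPB9 was at -1.63 and RPB3 at -1.0, while RPO21, its largest subunit, was at 0.21 and did not pass.

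Of 9 factors that bind the ribosomal DNA promoter or serve polymerase I initiation 8 fell, where 31.3% of all genes tested fell. They fell less deeply, with a median of -0.71. RRN11 and RRN7, parts of the core factor, were at -3.23 and -1.38, and SPT15, the TATA-binding protein, at -1.45. RRN10, a part of the upstream activating factor, was at -0.29 and did not pass. Of 9 polymerase III factors none fell and 2 rose, where 29.6% of all genes tested rose: MAF1, which encodes the repressor of polymerase III, at 1.37 ± 0.15, and TFC3 at 0.97 ± 0.41 (n = 3).

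Of 7 regulators of ribosome synthesis genes with a value 3 fell, IFH1 (-1.80), SCH9 (-1.62) and FHL1 (-1.34), where 31.3% of all genes tested fell. Another 3 rose, STB3 (0.93), SFP1 (0.83) and DOT6 (0.53), where 29.6% rose. IFH1, FHL1 and SFP1 encode activators of ribosomal protein or ribosome synthesis genes, STB3 and DOT6 repressors, and SCH9 a kinase that TORC1 activates. The ribosomal DNA chromatin genes SIR2 (-2.28), FOB1 (-1.99), NET1 (-1.37), TOP1 (-0.88) and CDC14 (-0.50) all fell.

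In the kcs1/vip1 difference of KCl minus mid-log growth, 8 of 10 polymerase III subunits were higher with a median of 1.38, RPC34 (2.51) and RPC25 (2.32) the most. Of the 5 shared subunits 2 were higher, RPB5 (1.30) and RPB8 (1.23). Of 7 polymerase II subunits, 9 polymerase III factors and 7 regulators none passed in limma, with 1, 2 and 0 at an unadjusted p under 0.05. Of 9 initiation factors 2 were higher, RRN11 (1.35) and RRN7 (0.75), and of 5 chromatin genes 3 were, SIR2 (1.04), FOB1 (0.86) and NET1 (0.78), where 13.4% of all genes tested were higher. The median of the RNA polymerase I members, 2.73, stood above that of each of these lists, and all genes tested had a median of -0.02. Since the lists were chosen with results of these data known, these counts are a description. A difference of this size was not particular to polymerase I genes. In kcs1/vip1 over wild type, BRX1 was at 4.11 in KCl and -0.07 in mid-log growth, NOP14 at 3.22 and -0.33, and DBP3 at 3.13 and -0.23. UTP8 was at 2.62 and -0.38, and TRM82 at 2.47 and -0.69. These genes were picked for their likeness to the members on these same arrays.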

How the data were processed

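Saccharomyces cerevisiae RNA was measured on 55 two-colour arrays. The authors deposited 1 ratio per probe and array, read here as log2; how they normalized it, and its log base, are not given in the sources used here, nor were intensities used. Of 6317 entries 61 controls were left out, and of 6256 probes 4075 carried 1 symbol and 2181 none. Symbols were updated with the R64 annotation (3942 directly, 129 from synonyms, 4 unmatched), and the probes of 7 symbols were averaged, giving 6249 genes. In 3 columns 407 exact zeros were set to missing. Arrays held 5216 to 6206 values, and their number limits the precision. Array medians lay between -0.09 and 0.05, apart from 0.38 on the wild type rapamycin array, and no centring was applied.

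Groups came from the labels, and slides were inferred from the long number that ends each title. A group-means model of 27 groups was fitted with limma 3.58.1 (R 4.3.3) to 54 arrays, with 27 residual and 4.63 prior degrees of freedom, for genes with at least 2 values per group. It gave 36 tested comparisons, 16 of them differences between groups, with Benjamini-Hochberg adjustment and a threshold of 0.05. The code was tested on simulated data. The genes named are all 10 members, the altered genes as a check of labels, neighbours, genes of 7 related lists, and the nearest genes, taken by Pearson's r over at least 50 arrays. The members and lists were chosen with earlier results of these data known. The regulators TOD6 and CRF1 had no probe matched by symbol. Derived responses add the wild type KCl or H2O2 ratio to the mutant's difference. The array whose title and sources conflict entered no comparison. Intervals are 95% intervals of the moderated fit. Alternatives were array centring, an equal spread for all arrays, a test limited to genes with a value throughout, slide as random or fixed block (16 slides), a dye term, robust moderation, turned signs, kept zeros, each array left out and, added later, removal of each array's length trend. Tables used python 3.11.15, numpy 2.4.6 and pandas 2.3.3, and figures matplotlib 3.10.9.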

Additional observations from a re-analysis of the deposited data

Results flagged for a closer look

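Differences between groups passed the test for members in 11 contrasts. The response to KCl differed from wild type, as KCl minus mid-log growth, for 8 members in kcs1/vip1 (RPA14 and RPC19 did not pass), for 5 in arg82, for 4 in Rpd3ibs and for 1 in vip1, RPA49. All of these were higher, where 13.4%, 2.51%, 4.29% and 2.69% of all genes tested were higher. The vip1 call was lost when any 1 array of either condition was left out. The wild type response differed between KCl and H2O2 for 8, lower in KCl, where 18.0% of 5699 genes tested were lower. With arrays scaled to the same spread 1 passed. Within KCl, kcs1/vip1 differed from vip1 for 8 members, from kcs1 for 7, from arg82 for 5 and from Rpd3ibs for 4. All but RPA14 against vip1 were higher, where 9.12%, 9.62%, 6.43% and 11.1% of all genes tested were higher. Against vip1 6.74% were lower. With arrays scaled to the same spread 1, 4, 0 and 0 members passed in these contrasts. On the H2O2 arrays labelled kcs1/vip1, whose LEU2 values leave the label in doubt, the ratio differed from mid-log growth for 2 members. RPA14 was higher, where 8.27% of 5732 genes tested were higher, and RRN3 lower, where 7.80% were lower. The ratio in KCl minus that in H2O2 was higher for 8 members, where 13.7% of 5748 genes tested were higher.

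The array left out of every comparison, whose title sets kcs1/vip1 in KCl against kcs1/vip1 while both sources name KCl, had a member median of -1.5. RPC19 was lowest on it at -2.59 and RRN3 highest at -0.37, and the direct KCl array of that strain had a median of -1.36.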

How the results depend on the processing

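Of 136 member results called, 64 were called under every alternative, and of 36 counts of called members 12 stayed within 1.5 times throughout. No paired analysis was possible because the labels carry no replicate numbers; slides were used as blocks instead. Scaling arrays to the same spread gave 1 call in mid-log arg82, kcs1 and snt1 and 2 in mid-log Vip1D487A, 8 in vip1 KCl, 5 in kcs1 KCl, 7 in Vip1D487A KCl and 5 with rapamycin. It gave 3 in vip1 KCl minus mid-log, 1 in that of kcs1, 1 in wild type KCl minus H2O2, 1, 4, 0 and 0 in kcs1/vip1 minus vip1, kcs1, arg82 and Rpd3ibs, and 1 in kcs1 minus vip1. A dye term left 1 call in mid-log ipk1, 5 in ipk1 KCl and 0 in vip1 KCl. Centring gave 2 in kcs1 KCl, as did testing only genes on every array, which also gave 1 in mid-log snt1 and 1 in kcs1 KCl minus mid-log. Slide as a random block gave 3 in kcs1 KCl and 1 in KCl minus mid-log of ipk1 and kcs1. As a fixed block it gave 3 in wild type KCl minus H2O2 and 1 in kcs1/vip1 H2O2 minus mid-log. Removing the length trend gave 2 in mid-log arg82, 1 in mid-log snt1 and 1 in kcs1 KCl minus mid-log. Turned Vip1D487A signs gave 0 calls in KCl and RRN3 at -0.035, adjusted p 0.969 in limma. The causes were not tested.

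Leaving out single arrays gave 0 to 2 calls in mid-log ipk1, 5 to 9 in ipk1 KCl, 0 to 1 in mid-log vip1, 0 to 3 in vip1 KCl, 0 to 1 in kcs1 KCl, 1 to 3 with rapamycin, 0 to 1 in Vip1D487A KCl and 4 to 6 in Rpd3ibs KCl. In KCl minus mid-log it gave 0 to 4 for ipk1, 2 to 4 for arg82, 0 to 0 for vip1 and 1 to 3 for Rpd3ibs, and 0 to 2 for kcs1/vip1 H2O2 minus mid-log. In KCl it gave 4 to 7 for kcs1/vip1 minus kcs1, 1 to 5 for minus arg82 and 1 to 5 for minus Rpd3ibs. A lone array left in a group is assumed to vary like the other groups. The promoter motif alternative was not run, as no promoter sequences were used here.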
